A study of Homo sapiens with 12 samples.

Results

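HepG2, a long-established line from a human liver tumour, was compared after 360 min in 0.001 µM 2,4-D with the same line at 0 min, before any exposure. 2,4-D is a phenoxy herbicide that acts in plants as a synthetic auxin. The comparison used 6 of the 12 libraries of the series, chosen by their labels: the 3 labelled 360 min and the 3 labelled 0 min, which the series' design text calls biological replicates. The 6 libraries labelled 10 min and 30 min entered the fit only for its estimate of the spread between replicates. Both groups were harvested with trypsin, and polyadenylated RNA was sequenced, per the labels' protocols. HepG2 is a single tumour line, and the labels give no change of genotype in any group. Cells kept for 360 min without 2,4-D were not analysed here, so the exposure and the time elapsed since the 0 min harvest cannot be told apart for any result.

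Hepatocyte-like cells respond to foreign chemicals through sensor proteins that switch on detoxifying enzymes. The aryl hydrocarbon receptor and its target CYP1A1 are the textbook case. They also adjust steadily to the medium around them. Sterol genes are controlled by SREBP factors, chaperone genes by heat shock factors, and ID genes by BMP ligands acting through SMAD proteins. Immediate early genes such as FOS are switched on within minutes of serum, handling or stress, and their short-lived mRNAs then decay. Genes for mitosis are kept under a common promoter element, the cell cycle genes homology region (CHR), which is often paired with CCAAT boxes.

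Promoter sequences of 6 genes are shown because they carry motifs of the kinds named above. The part of any regulator in the results was not tested. Each is the 250 bases before the RefSeq gene start on GRCh38.p14, printed 5′ to 3′ on the gene's own strand, with the matches of the named motif in capitals. In CYP1A1 (chr15:74725529-74725778 on the minus strand) the capitals mark the xenobiotic response element core GCGTG, which starts 57 bases before the gene start. In ANLN (chr7:36389612-36389861 on the plus strand) and TOP2A (chr17:40417897-40418146 on the minus strand) they mark the CHR, searched as TTTGAA or TTTAAA on either strand, and in TOP2A the CCAAT boxes as well. In HSPA8 (chr11:123062137-123062386 on the minus strand), CHORDC1 (chr11:90223050-90223299 on the minus strand) and DNAJA1 (chr9:33025023-33025272 on the plus strand) they mark the heat shock element, searched as the blocks GAA and TTC set 2 bases apart with the edge of a further block beside them, on either strand, so that neighbouring matches can overlap.
CYP1A1: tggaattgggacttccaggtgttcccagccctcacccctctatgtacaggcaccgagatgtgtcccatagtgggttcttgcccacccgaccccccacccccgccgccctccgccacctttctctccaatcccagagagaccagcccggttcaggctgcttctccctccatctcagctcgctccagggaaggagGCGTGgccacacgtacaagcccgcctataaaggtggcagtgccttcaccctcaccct
ANLN: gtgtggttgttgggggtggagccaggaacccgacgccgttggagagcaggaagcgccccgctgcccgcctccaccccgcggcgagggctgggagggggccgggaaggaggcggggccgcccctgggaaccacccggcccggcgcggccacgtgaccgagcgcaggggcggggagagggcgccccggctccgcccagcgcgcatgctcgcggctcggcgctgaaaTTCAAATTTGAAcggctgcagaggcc
TOP2A: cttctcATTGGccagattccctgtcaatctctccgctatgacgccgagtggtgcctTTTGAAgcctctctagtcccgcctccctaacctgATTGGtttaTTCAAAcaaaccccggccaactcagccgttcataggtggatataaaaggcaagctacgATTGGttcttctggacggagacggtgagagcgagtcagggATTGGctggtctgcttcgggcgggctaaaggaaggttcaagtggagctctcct
HSPA8: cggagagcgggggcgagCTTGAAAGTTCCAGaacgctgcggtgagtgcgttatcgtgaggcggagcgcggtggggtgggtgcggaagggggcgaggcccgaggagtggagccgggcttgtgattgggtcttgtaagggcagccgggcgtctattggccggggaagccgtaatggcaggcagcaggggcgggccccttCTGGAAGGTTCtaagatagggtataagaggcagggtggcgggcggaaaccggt
CHORDC1: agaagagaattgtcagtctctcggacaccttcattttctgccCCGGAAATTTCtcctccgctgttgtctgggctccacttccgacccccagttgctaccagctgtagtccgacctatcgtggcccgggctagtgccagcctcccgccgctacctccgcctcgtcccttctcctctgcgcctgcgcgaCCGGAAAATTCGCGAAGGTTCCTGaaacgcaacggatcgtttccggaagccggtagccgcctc
DNAJA1: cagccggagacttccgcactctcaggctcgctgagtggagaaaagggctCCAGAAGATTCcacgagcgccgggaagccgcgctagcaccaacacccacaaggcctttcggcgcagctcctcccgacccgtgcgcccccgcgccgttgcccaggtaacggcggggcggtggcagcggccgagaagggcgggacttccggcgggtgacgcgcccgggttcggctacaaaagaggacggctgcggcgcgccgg

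Of the 60612 genes in the table, 17779 were expressed highly enough to test, and 3215 of these (18.1%) differed between 360 min and 0 min at a Benjamini-Hochberg adjusted p under 0.05 in edgeR's quasi-likelihood test. That test gave every adjusted p below. A total of 1581 genes (8.89%) were higher and 1634 (9.19%) were lower at 360 min. Most changes were small: the median log2 fold change was 0.24 among the genes called higher and -0.29 among those called lower, against 5e-04 over all genes tested. The large changes leaned downward. At least 1.5-fold changes were seen for 120 of the genes called higher and 310 of those called lower, and at least 2-fold changes for 41 and 104. The values of the 3 libraries at 360 min lay wholly outside those of the 3 libraries at 0 min for 6322 genes (35.6% of those tested) and for 3180 of the 3215 called (98.9%).

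**Figure D1:**
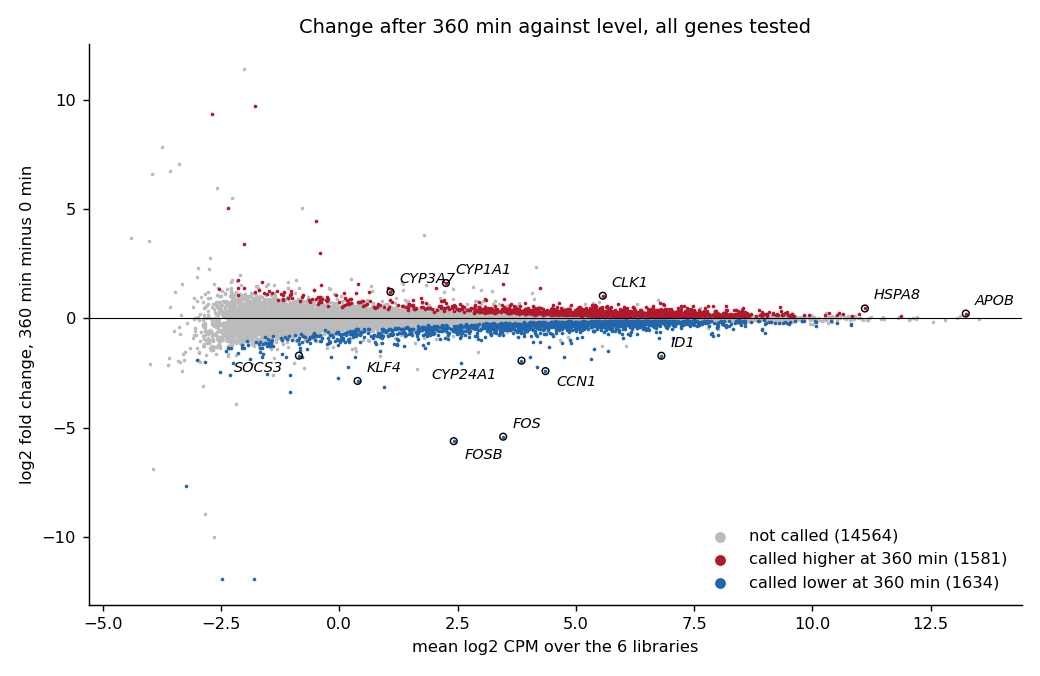
The log2 fold change of each of the 17779 genes tested (360 min minus 0 min, vertical axis) is plotted against its mean log2 CPM (counts per 1e6 counts) over the 6 libraries (horizontal axis); red and blue points are genes called higher (1581) and lower (1634). Well-measured genes lie close to 0, FOS and FOSB lie farthest below among genes with a mean log2 CPM above 0, and the points beyond 6 in either direction are genes whose libraries in 1 group were all at or near 0, so that their fitted values are no measure of size.

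In units of 1e6 counts, the libraries held 68.4, 33.4 and 64.0 at 360 min, against 37.2, 66.8 and 52.0 at 0 min. Levels are counts per 1e6 counts (CPM) after TMM scaling, and 3 counts, the limit that a count of 0 allows, came to between 0.0438 and 0.0897 CPM over these libraries, counting error only. Mitochondrial genes took 2.61%, 2.52% and 3.99% of counts at 360 min, against 4.39%, 2.61% and 2.66% at 0 min. Replicate 3 at 360 min and replicate 1 at 0 min therefore stood apart on this measure, and the other 4 libraries are called the low mitochondrial side. Markers of HepG2 were all tested, with a summed level of 26100 to 27100 CPM at 360 min, against 25500 to 26900 CPM at 0 min. Of 7 fibroblast markers, 1 passed the filter, and COL1A2, LUM and DCN were at 0 in all 6 libraries. The fibroblast sum was 1.90 to 2.42 CPM at 360 min, against 2.57 to 3.72 CPM at 0 min, without overlap. The only fibroblast marker tested was called lower (log2 fold change -0.5). Of 7 leukocyte markers, 4 passed the filter and PTPRC was at 0 in all 6 libraries. Their sum was 1830 to 1920 CPM at 360 min, against 1850 to 1970 CPM at 0 min, and nearly all of it was LYZ, which encodes lysozyme and was not called (mean 1813 CPM at 360 min, against 1842 CPM at 0 min). Of 5 endothelial markers, 2 passed and KDR was at 0, with a sum of 1.69 to 1.88 CPM at 360 min, against 1.29 to 1.87 CPM at 0 min. The part of these markers in the results was not tested. In bulk RNA, fewer cells of a type and less RNA per cell cannot be told apart.

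The genes called higher were poorer in G and C than the genes called lower. The median transcript GC content was 44.1% for the genes called higher, 54.9% for those called lower and 49.1% for all genes tested. In the lowest quintile of GC content 15.3% of genes were higher and 3.79% lower, and in the highest 4.02% were higher and 16.3% lower. Each library had its own tilt. The low-GC genes stood above the high-GC genes by 0.065, 0.094 and 0.040 log2 units in the 3 libraries at 360 min, against -0.113, -0.043 and -0.035 at 0 min, so the groups did not overlap. Removing the GC trend of each library, an alternative added after the data were seen, left 3326 genes called, of which 2708 were among the 3215, and the lowest quintile then had 9.63% higher and 9.11% lower. The part of GC content in any single result was not tested, and for the gene lists described below the counts without the trend are given where they moved by more than 1.5 times or where GC content is discussed. Counts of 1 or 2 members often moved by 1 under another setting, and those moves are not listed. Each list count below is to be read against 8.89% higher and 9.19% lower over all genes tested. Expression level mattered for detection too: 18.8% of the most abundant quintile of genes were called higher and 11.7% lower, against 1.07% and 2.28% of the least abundant.

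**Figure D2:**
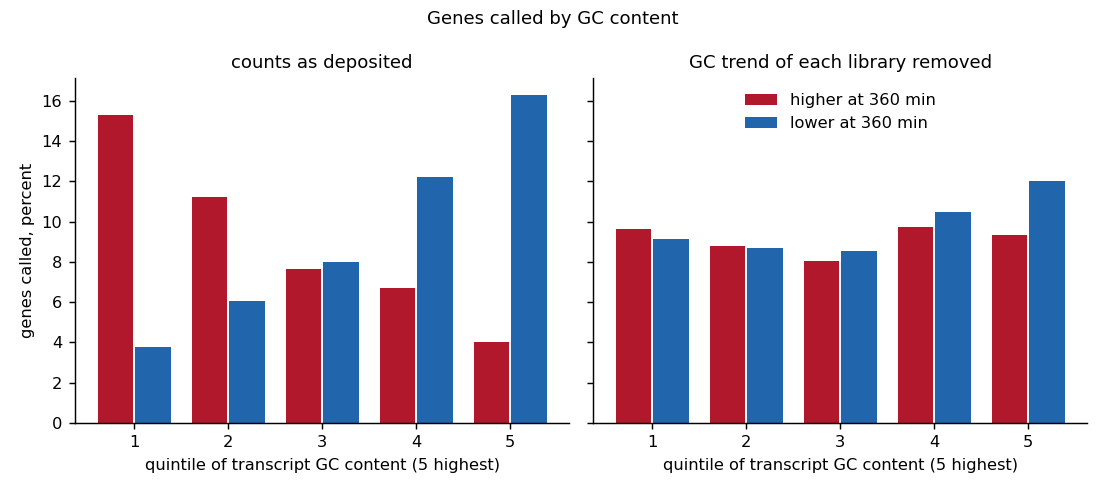
Percent of genes called higher (red) and lower (blue) at 360 min in each quintile of transcript GC content (1 lowest, 5 highest), from the counts as deposited (left) and after the GC trend of each library was removed (right). Left, higher calls decline from 15.3% to 4.02% across the quintiles and lower calls climb from 3.79% to 16.3%; right, both stay between 8.06% and 12.0%.

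**Figure D3:**
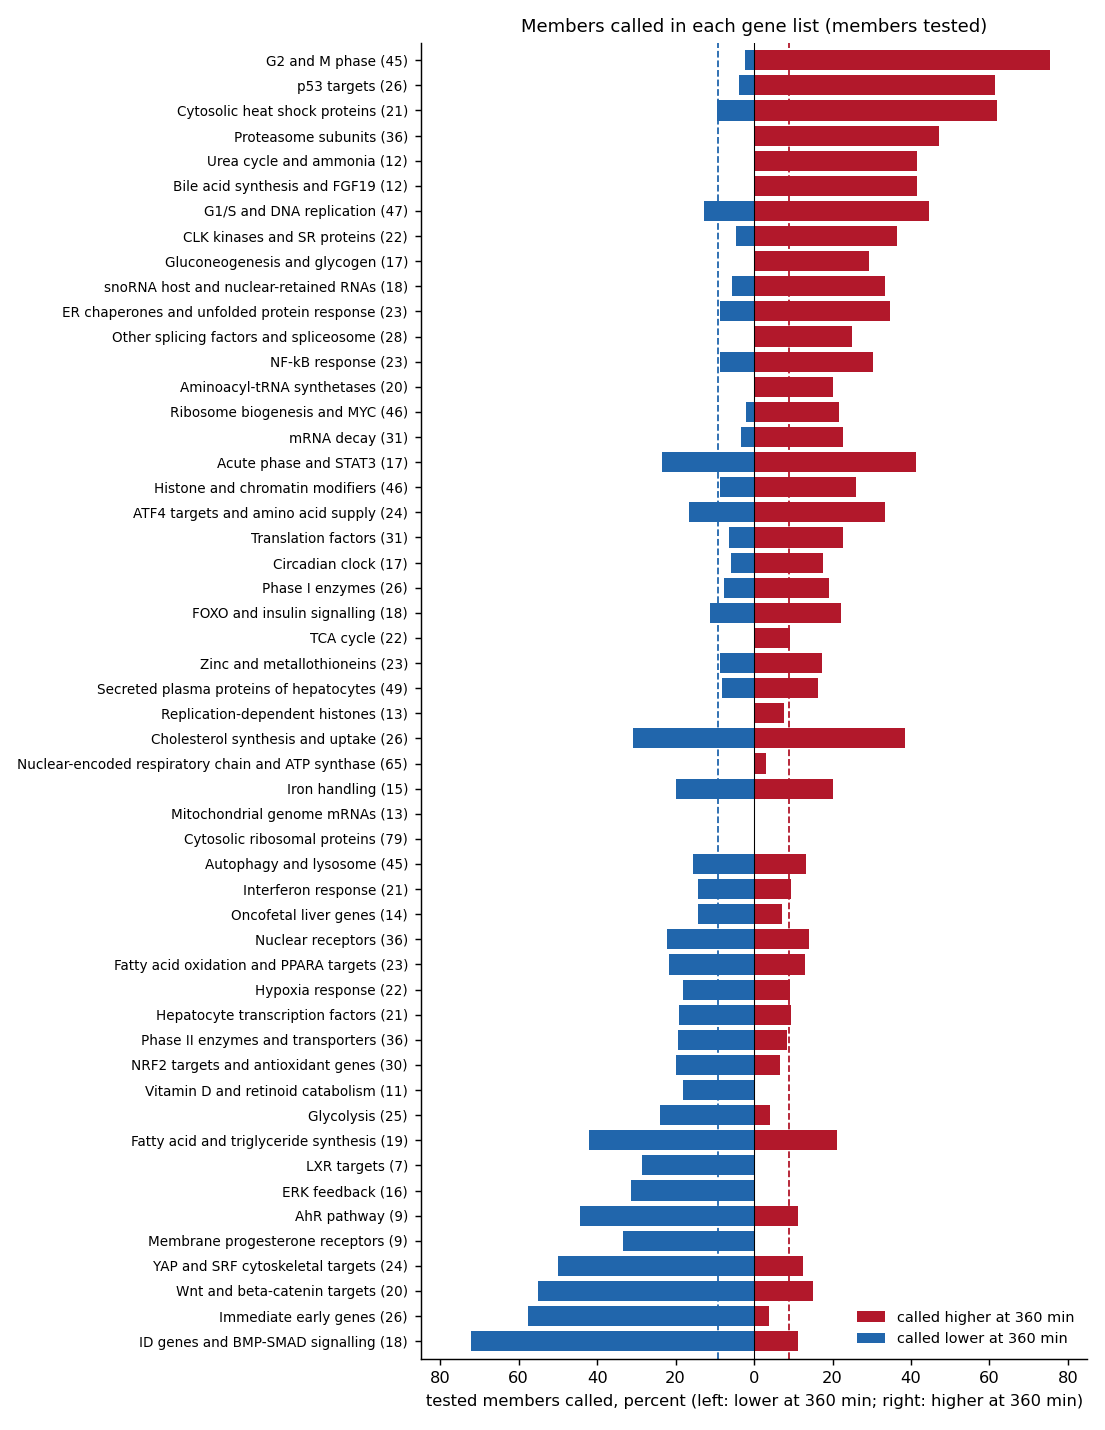
Percent of the tested members of each of 52 gene lists called higher (red, to the right) and lower (blue, to the left) at 360 min, with the number tested in brackets; the dashed lines are the shares over all genes tested, 8.89% higher and 9.19% lower. G2 and M phase, p53 and heat shock genes stand at the top, and ID and BMP-SMAD genes and immediate early genes at the bottom.

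The enzyme most closely tied to the aryl hydrocarbon receptor, CYP1A1, had the largest increase among called genes with a mean log2 level of at least 1 and groups that did not overlap. CYP1A1 (chr15:74719542-74725610 on the minus strand, by GENCODE 29 on GRCh38) had 8.41, 8.65 and 7.94 CPM at 360 min, against 2.97, 3.04 and 2.13 CPM at 0 min. All 3 libraries at 360 min were above all 3 at 0 min (log2 fold change 1.62 ± 0.17, adjusted p = 4.6e-05; fold changes are given ± SE). The receptor itself moved the other way. AHR had 49.7, 52.2 and 53 CPM at 360 min, against 66.3, 66.8 and 65.1 CPM at 0 min, with no overlap (log2 fold change -0.36 ± 0.06, adjusted p = 9.1e-04). Of the 9 tested genes of the AhR list, CYP1A1 was the only one called higher, and 4 were called lower, including NQO1, a quinone reductase (-0.17 ± 0.03). The median of the list was -0.17, and 0.008 without replicate 3 at 0 min. ALDH3A1, an aldehyde dehydrogenase, was also lower (-0.47), and it lost its call on the low mitochondrial side alone. The GCGTG core occurs in 36.3% of all promoters in the RefSeq table and in 49.5% of those of genes tested. It is in 51.2% of those of genes called higher and 47.0% of those called lower, so its presence in CYP1A1 is a description only.

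Among the other enzymes of drug metabolism the changes were mixed in direction. Over all genes tested, 8.89% were higher and 9.19% lower. CYP3A7, the fetal form of the major liver P450 family, had 3.38, 2.96 and 3.17 CPM at 360 min, against 1.21, 1.58 and 1.31 CPM at 0 min. It rose (log2 fold change 1.21 ± 0.17, adjusted p = 3.3e-04), at a level near 3 CPM and in a locus that shares reads with a readthrough model and with close paralogs. CYP2S1, a P450 expressed mainly outside the liver, had 12.8, 13.1 and 15.1 CPM at 360 min, against 24.7, 21.9 and 22.7 CPM at 0 min. It fell without overlap (log2 fold change -0.75 ± 0.07, adjusted p = 1.4e-05). Of 26 tested phase I enzymes, 5 were higher and 2 lower, and 3 were higher without replicate 3 at 360 min or without replicate 3 at 0 min. Of 36 phase II enzymes and transporters, 3 were higher and 7 lower. SULT2A1, a steroid sulphotransferase, and UGT2B10, a glucuronosyltransferase, rose (0.47 ± 0.06 and 0.45 ± 0.05), while the efflux pumps ABCC1 and ABCC3 fell (-0.33 ± 0.04 and -0.21 ± 0.04). Of 30 NRF2 targets and antioxidant genes, 2 were higher and 6 lower. HMOX1, which breaks down haem, had 54, 52.6 and 55.1 CPM at 360 min, against 96.7, 87 and 80.1 CPM at 0 min (log2 fold change -0.70 ± 0.05, adjusted p = 4.1e-06).

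**Figure D4:**
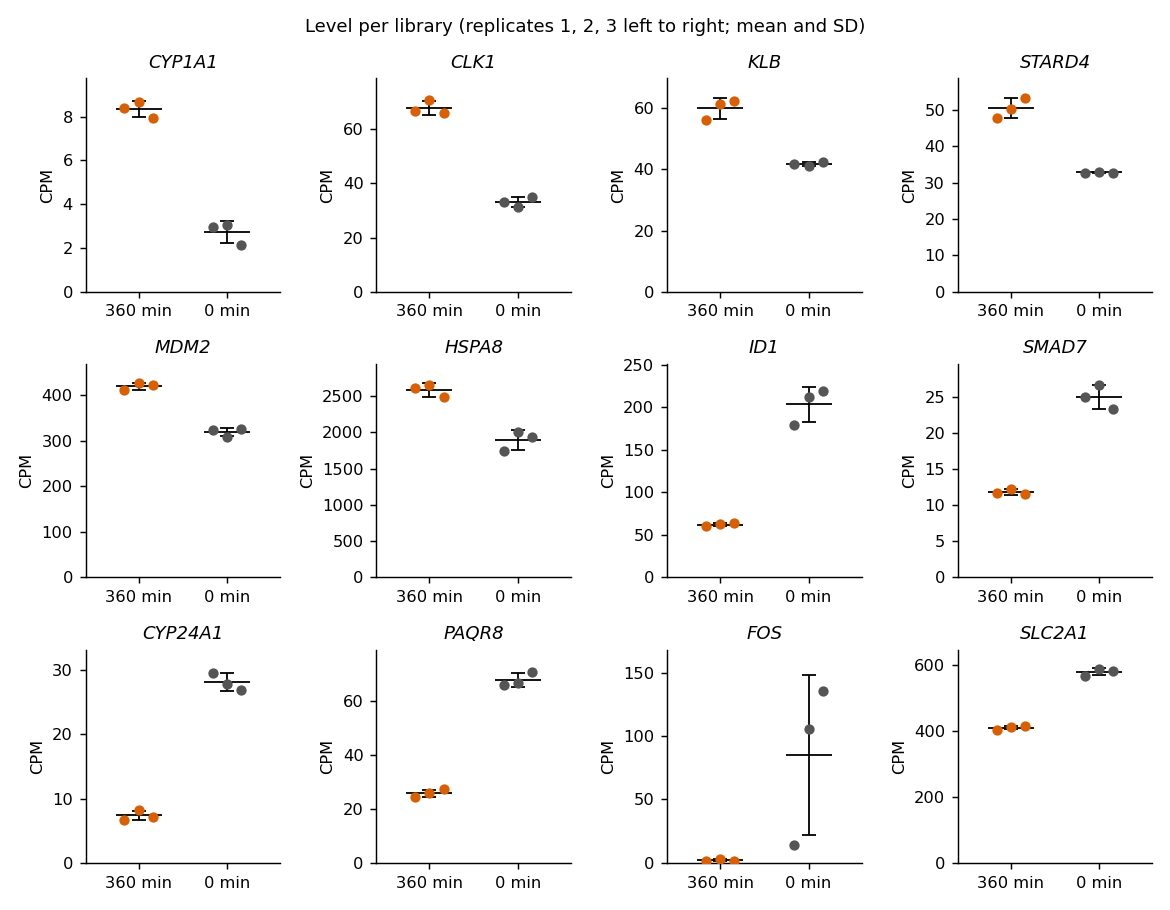
Level in CPM (vertical axes, each starting at 0) of 12 genes in the 3 libraries at 360 min (orange, left) and at 0 min (grey, right), with the mean and SD of each group. The groups do not overlap in any of the 12 genes; FOS at 0 min runs from 14.1 CPM in replicate 1 to 136 CPM in replicate 3, while ID1, CYP24A1 and PAQR8 are tight in both groups.

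The ID and BMP-SMAD list had the largest share of members called lower among the 52 lists, 13 of 18, with 2 higher and a median of -0.43. BMP ligands activate receptor kinases that phosphorylate SMAD1, SMAD5 and SMAD9. These proteins then switch on the ID genes, whose products block differentiation factors, and the inhibitors SMAD6, SMAD7 and BAMBI, which feed back on the pathway. ID1 (chr20:31605283-31606515 on the plus strand) had 60.2, 62.2 and 63.6 CPM at 360 min, against 179.6, 211 and 219 CPM at 0 min. Every library at 360 min was below every library at 0 min, and the adjusted p of ID1 was tied with PAQR8 for the smallest of the named genes (log2 fold change -1.71 ± 0.06, adjusted p = 6.4e-09). ID3 had 28.9, 28.6 and 33 CPM at 360 min, against 80.8, 87.3 and 90.8 CPM at 0 min (log2 fold change -1.52 ± 0.06, adjusted p = 1.2e-08). ID2 fell less (log2 fold change -0.72 ± 0.07, adjusted p = 1.9e-05). The groups overlapped in none of the 3 ID genes.

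The feedback inhibitors fell with the ID genes. SMAD7, an inhibitory SMAD, had 11.6, 12.2 and 11.5 CPM at 360 min, against 24.9, 26.6 and 23.3 CPM at 0 min (log2 fold change -1.08 ± 0.06, adjusted p = 1.4e-07). BAMBI, a decoy receptor, had 21.5, 21.2 and 19.8 CPM at 360 min, against 39, 41.9 and 42.4 CPM at 0 min (log2 fold change -0.98 ± 0.05, adjusted p = 1.4e-07). SMAD6, the other inhibitory SMAD, had 8.57 ± 0.890 CPM at 360 min, against 12.9 ± 0.266 CPM at 0 min (SD, n = 3 each; log2 fold change -0.58 ± 0.08, adjusted p = 3.1e-04). None of these groups overlapped. SMAD9, a receptor-regulated SMAD, fell as well (-0.88 ± 0.10), while BMP4, a ligand, was among the 2 members called higher (0.21 ± 0.04). HAMP, which encodes hepcidin, a hormone that limits iron uptake and a BMP target in liver, had 0.0292, 0.0592 and 0.0956 CPM at 360 min, against 0.402, 0.448 and 0.304 CPM at 0 min, which is close to the limit of 3 counts at 360 min (log2 fold change -2.62 ± 0.48, adjusted p = 0.0024; DESeq2 gave no adjusted p). SMAD6, BMP4 and HAMP were named after their values were seen. With replicate 1 as the only library kept at 0 min, an alternative added after the data were seen, 8 members were lower instead of 13. A SMAD palindrome, GTCTAGAC, was found in 1 of 18 promoters of the list and in 0.2% of all promoters.

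Immediate early genes were mostly lower, 15 of 26, with 1 higher and a median of -0.52. They are induced within minutes of a stimulus, and at 0 min their level differed widely between libraries. FOS (chr14:75278774-75282230 on the plus strand), a subunit of the AP-1 transcription factor, had 1.59, 2.93 and 1.80 CPM at 360 min, against 14.1, 106 and 136 CPM at 0 min. FOS was far lower at 360 min than in any library at 0 min, but replicate 1 at 0 min was well below the other two (log2 fold change -5.42 ± 0.68, adjusted p = 1.5e-04). FOSB, another AP-1 subunit, had 0.875, 0.978 and 0.941 CPM at 360 min, against 6.11, 55.5 and 75.1 CPM at 0 min and the same low replicate (log2 fold change -5.63 ± 0.73, adjusted p = 1.9e-04), and it lost its call in limma voom. JUN, the partner of FOS, had 21.8, 24.6 and 20.9 CPM at 360 min, against 35.3, 95.7 and 108 CPM at 0 min (log2 fold change -1.84 ± 0.29, adjusted p = 7.6e-04). Replicate 1 at 0 min was the lowest of its group for all 3 genes and still above every library at 360 min. With it as the only library kept at 0 min, the log2 fold changes were -2.78 for FOS, -2.72 for FOSB and -0.66 for JUN, all still called by edgeR.

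A pair of further immediate early genes had the same low library. DUSP1, a phosphatase that switches off MAP kinases, had 8.57, 8.26 and 10.1 CPM at 360 min, against 16.9, 48.3 and 60.6 CPM at 0 min (log2 fold change -2.23 ± 0.32, adjusted p = 4.6e-04). CCN1, a matricellular protein driven by YAP and SRF, had 8.92, 10.2 and 9.07 CPM at 360 min, against 22.4, 58.2 and 68.3 CPM at 0 min (log2 fold change -2.42 ± 0.30, adjusted p = 1.4e-04). Both had their lowest value at 0 min in replicate 1, and against that library alone their log2 fold changes were -0.91 and -1.26. With replicate 1 as the only library kept at 0 min, 10 of the 26 immediate early genes were lower, with a median of -0.23. Without replicate 1, 16 were lower, with a median of -0.69. FOS averaged 85.1, 10.2, 2.94 and 2.11 CPM at 0, 10, 30 and 360 min in turn, and JUN averaged 79.7, 26.4, 25 and 22.4 CPM. In both, the averages at 10 and 30 min were below that at 0 min. Neither gene was called at 10 min against 0 min (adjusted p = 0.119 for each), and both were called at 30 min (0.00263 and 0.0135). The 0 min averages rest largely on replicates 2 and 3, since replicate 1 had 14.1 CPM of FOS and 35.3 CPM of JUN. A fall within 10 min is therefore not shown. The comparisons at 10, 30 and 360 min share the 0 min libraries, so the averages are given only side by side.

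KLF4, a reprogramming factor, had 0.685, 0.326 and 0.430 CPM at 360 min, against 1.96, 4.28 and 4.62 CPM at 0 min (log2 fold change -2.87 ± 0.36, adjusted p = 1.4e-04). Replicate 1 was again the lowest at 0 min, and against it alone the log2 fold change was -1.97. KLF10, a factor induced by TGF-beta, had 18.9 ± 1.10 CPM at 360 min, against 30.4 ± 2.48 CPM at 0 min (SD, n = 3 each; log2 fold change -0.69 ± 0.07, adjusted p = 4.6e-05), and -0.55 against replicate 1 at 0 min alone. Both kept their calls in that setting. BTG2, an antiproliferative gene, was the single member called higher (0.61 ± 0.10); it was named after its value was seen, and it lost its call in that setting.

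Targets of YAP and SRF had 12 of 24 members lower and 3 higher, with a median of -0.14. TAGLN, an actin-binding protein, had 82.4, 84.4 and 80.2 CPM at 360 min, against 133, 130.3 and 123 CPM at 0 min. The groups were tight and well apart (log2 fold change -0.65 ± 0.04, adjusted p = 2.3e-07). CCN2, a relative of CCN1, had 181, 189 and 179 CPM at 360 min, against 258, 331 and 367 CPM at 0 min (log2 fold change -0.80 ± 0.09, adjusted p = 6.7e-05). TGFB1, the ligand, also fell (-0.49 ± 0.05), whereas AJUBA, a LIM protein that restrains the Hippo kinases, rose (0.31 ± 0.04). An antisense gene, AL133346.1, overlaps CCN2 and was called lower with it, and without strand their reads cannot be told apart. Against replicate 1 at 0 min alone, the log2 fold change of CCN2 was -0.50, and AL133346.1 lost its call. In the ERK feedback list 5 of 16 were lower, among them ETV4 and ETV5, which are ERK-responsive ETS factors (-0.18 ± 0.03 and -0.18 ± 0.04), and the other 11 were not called. On the low mitochondrial side alone 1 of the YAP and SRF targets was higher.

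Wnt and beta-catenin targets were lower in 11 of 20 cases and higher in 3 (1 on the low mitochondrial side alone), with a median of -0.15. In HepG2 this pathway is active because the line carries a stabilised beta-catenin. NKD1, a Wnt feedback inhibitor, had 194, 184 and 189 CPM at 360 min, against 309, 297 and 283 CPM at 0 min. Its groups did not overlap (log2 fold change -0.65 ± 0.04, adjusted p = 5.3e-07). NOTUM, a secreted enzyme that inactivates Wnt ligands, had 222, 220.3 and 235 CPM at 360 min, against 299.9, 284 and 287 CPM at 0 min (log2 fold change -0.37 ± 0.04, adjusted p = 5.5e-05). CCND1, which encodes cyclin D1, had 202, 190.2 and 204 CPM at 360 min, against 263, 250.04 and 249.5 CPM at 0 min (log2 fold change -0.36 ± 0.04, adjusted p = 3.2e-05). TBX3, a liver progenitor factor, and MYC, a growth regulator, were lower too (-0.49 ± 0.04 and -0.38 ± 0.05, and -0.24 for MYC against replicate 1 at 0 min alone). TBX3 is also in the list of hepatocyte transcription factors, where 4 of 21 were lower and 2 higher, or 4 higher without the GC trend. Beside these stand 9.19% lower and 8.89% higher over all genes tested, so the 2 higher lie near the general share. CEBPA, which maintains hepatocyte gene expression, fell (log2 fold change -0.42 ± 0.05, adjusted p = 6.0e-05). FOXA2 and HNF4A, which define the liver lineage, were the 2 that rose (0.25 ± 0.04 and 0.16 ± 0.03).

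Sterol genes divided. Of 26 tested, 10 were higher and 8 lower, so the median of the list, 0.004, describes neither set. STARD4, which carries cholesterol between membranes, had 47.9, 50.4 and 53.4 CPM at 360 min, against 32.8, 33 and 32.8 CPM at 0 min. All libraries at 360 min were above those at 0 min (log2 fold change 0.62 ± 0.05, adjusted p = 5.0e-06). The early enzymes HMGCS1 and IDI1 and the later enzyme SQLE rose as well (0.42 ± 0.04, 0.53 ± 0.05 and 0.48 ± 0.04).

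Other genes of the same pathway went down. DHCR7, which makes cholesterol from its last precursor, had 119, 118 and 128 CPM at 360 min, against 156, 157 and 146 CPM at 0 min (log2 fold change -0.33 ± 0.04, adjusted p = 1.0e-04). FDFT1, the first committed enzyme of sterol synthesis, had 174 ± 6.49 CPM at 360 min, against 215 ± 9.10 CPM at 0 min (SD, n = 3 each; log2 fold change -0.31 ± 0.04, adjusted p = 2.6e-04). The groups overlapped in neither of these genes, which were named after their values were seen. With replicate 1 as the only library kept at 0 min, 4 of the sterol genes were lower instead of 8. The median GC content was 41.4% for the sterol genes called higher and 58.0% for those called lower. Without the GC trend 11 sterol genes were higher and 8 lower.

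Fatty acid and triglyceride synthesis had 8 of 19 members lower and 4 higher, with a median of -0.09. ACSS2, which makes acetyl-CoA from acetate, had 47.8, 50.6 and 51.3 CPM at 360 min, against 74.9, 71.5 and 69.5 CPM at 0 min. It fell without overlap (log2 fold change -0.53 ± 0.04, adjusted p = 1.9e-06). SCD, which desaturates fatty acids and is among the most abundant mRNAs of these cells, had 1651, 1599 and 1749 CPM at 360 min, against 1967, 1983 and 1966 CPM at 0 min (log2 fold change -0.24 ± 0.03, adjusted p = 2.5e-04). ELOVL6, a fatty acid elongase, and the triglyceride enzymes DGAT2 and AGPAT2 also fell (-0.39 ± 0.05, -0.35 ± 0.04 and -0.34 ± 0.04). PNPLA3, a lipid droplet protein, rose (log2 fold change 0.40 ± 0.06, adjusted p = 5.2e-04). In fatty acid oxidation 5 of 23 were lower and 3 higher, and 1 was higher on the low mitochondrial side alone, with 6 lower. CPT1A, which carries fatty acids into mitochondria, fell (log2 fold change -0.35 ± 0.04, adjusted p = 2.0e-04), and EHHADH, a peroxisomal enzyme, rose (log2 fold change 0.39 ± 0.05, adjusted p = 3.4e-04). ANGPTL4, a secreted lipase inhibitor, had 1.18, 1.36 and 0.701 CPM at 360 min, against 3.05, 3.00 and 3.04 CPM at 0 min (log2 fold change -1.51 ± 0.23, adjusted p = 5.7e-04).

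Glucose entry and glycolysis were lower in 6 of 25 genes and higher in 1, or in 3 without the GC trend. SLC2A1, the main glucose transporter of growing cells, had 405, 412 and 415 CPM at 360 min, against 569, 589.7 and 582 CPM at 0 min. The groups were tight and apart (log2 fold change -0.50 ± 0.03, adjusted p = 1.7e-06). PFKP, a phosphofructokinase, and SLC2A2, the hepatocyte glucose transporter, fell too (-0.46 ± 0.04 and -0.34 ± 0.05). SLC16A3, which exports lactate, had 663, 657 and 679 CPM at 360 min, against 812, 792 and 781 CPM at 0 min (log2 fold change -0.25 ± 0.04, adjusted p = 0.0013). The other 18 genes were not called, and the median of the list was -0.02.

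Some genes of bile acid handling and of the urea cycle were modestly higher. In bile acid synthesis and FGF19 signalling 5 of 12 were higher and the other 7 not called, with a median of 0.07. At an unadjusted p under 0.05, 3 members were lower. The median GC content was 42% for the members called higher and 52.7% for the list. Without the GC trend 6 were higher and 1 lower. KLB, the co-receptor for FGF19, had 56, 61.4 and 62.4 CPM at 360 min, against 41.6, 41.1 and 42.4 CPM at 0 min. Its groups did not overlap (log2 fold change 0.52 ± 0.04, adjusted p = 5.8e-06). NR1H4, the bile acid receptor FXR, had 12.3, 11.7 and 11.6 CPM at 360 min, against 7.96, 8.33 and 7.53 CPM at 0 min (log2 fold change 0.59 ± 0.09, adjusted p = 9.4e-04). AKR1D1, which reduces the sterol ring on the way to bile acids, rose as well (0.47 ± 0.06). The count was 3 without replicate 2 at 360 min, and 2 members were lower on the low mitochondrial side alone. In the urea cycle and ammonia list, with a median of 0.11, 5 of 12 were higher, and 3 on the low mitochondrial side alone. They include CPS1, its first enzyme (0.23 ± 0.04), and ARG2, an arginase (0.29 ± 0.05).

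Of 49 secreted plasma proteins 8 were higher and 4 lower, beside 8.89% higher and 9.19% lower over all genes tested. The balance turned on the low mitochondrial side alone, with 5 higher and 7 lower. DESeq2 called 10 higher and 7 lower. APOB, the structural protein of VLDL and the most abundant called gene, had 10220, 10503 and 10684 CPM at 360 min, against 8341, 9654 and 8996 CPM at 0 min (log2 fold change 0.22 ± 0.04, adjusted p = 0.0037, and 0.14 on the low mitochondrial side alone). The 3 fibrinogen chains rose by similar amounts: FGA by 0.26 ± 0.04, FGB by 0.31 ± 0.05 and FGG by 0.19 ± 0.03 on the log2 scale. Without the GC trend FGG rose by 0.12. The 3 are encoded by neighbouring genes and belong to the acute phase list, where 7 of 17 were higher and 4 lower. Among the 4 were a pair of its regulators. STAT3, which carries the interleukin 6 signal, had 75.8, 75.7 and 76.5 CPM at 360 min, against 98.9, 106 and 100.1 CPM at 0 min (log2 fold change -0.42 ± 0.04, adjusted p = 9.0e-06). SOCS3, the feedback inhibitor of STAT3, had 0.277, 0.296 and 0.271 CPM at 360 min, against 0.830, 0.895 and 1.03 CPM at 0 min (log2 fold change -1.71 ± 0.18, adjusted p = 5.0e-05). SOCS3 was low in all 6 libraries, with 1.03 CPM at most. Without replicate 2 or replicate 3 at 360 min, 5 of the plasma proteins were higher, and without replicate 1 or 2 at 360 min or replicate 2 or 3 at 0 min, 2 were lower.

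Genes of G2 and mitosis rose together by small amounts: 34 of 45 were higher and 1 lower, with a median of 0.25. Without the GC trend 31 were higher and 2 lower. ANLN, which organises the cleavage furrow, had 164, 170.5 and 173 CPM at 360 min, against 114, 126 and 125 CPM at 0 min. The libraries at 360 min were all above those at 0 min (log2 fold change 0.48 ± 0.04, adjusted p = 5.8e-06). TOP2A, the topoisomerase that untangles chromosomes, had 523, 539 and 545 CPM at 360 min, against 400.1, 425 and 409 CPM at 0 min (log2 fold change 0.38 ± 0.04, adjusted p = 3.9e-05). ASPM, a spindle pole protein, had 83.5, 93.2 and 89.1 CPM at 360 min, against 58.7, 60.5 and 66.6 CPM at 0 min (log2 fold change 0.51 ± 0.06, adjusted p = 9.8e-05). BUB1B, a checkpoint kinase, BIRC5, which encodes survivin, and CCNA2, which encodes cyclin A2, rose by 0.31, 0.30 and 0.30 on the log2 scale. A CHR was found in 29 of the 37 promoters of the list in the RefSeq table (78.4%), against 24.3% of all 27305 promoters, and in 24 of the 28 whose gene was higher. CCAAT boxes (CCAAT, searched on both strands) were in 30 of the 37 (81.1%), against 35.7% of all. The matches are descriptions of 300-base windows, from 250 bases before the start to 50 after it.

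In the list for G1/S and DNA replication 21 of 47 were higher and 6 lower, with a median of 0.08. TYMS, which makes thymidylate, had 329, 337 and 339.6 CPM at 360 min, against 244, 266 and 258 CPM at 0 min (log2 fold change 0.39 ± 0.04, adjusted p = 2.8e-05). RRM2, a ribonucleotide reductase subunit, and LIG1, the replicative DNA ligase, rose alike (0.40 ± 0.04 and 0.40 ± 0.04). CDK6, a partner of cyclin D1, rose (log2 fold change 0.43 ± 0.05, adjusted p = 6.7e-05). The 6 that fell include CCND1, given above, and E2F2, an activator of S phase genes (log2 fold change -0.40 ± 0.04, adjusted p = 4.6e-05). An E2F site (TTTCCCGC, TTTGGCGC or TTTCGCGC on either strand) was in 20 of 40 promoters of the list, against 2.8% of all promoters. It was in 9 of the 18 promoters of genes called higher and in 4 of the 5 of genes called lower. With replicate 1 as the only library at 0 min, 12 were higher and 3 lower.

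Of 26 p53 targets 16 were higher and 1 lower, with a median of 0.21. MDM2, which feeds back on p53, had 411, 426 and 423 CPM at 360 min, against 324, 308 and 326 CPM at 0 min (log2 fold change 0.40 ± 0.04, adjusted p = 3.8e-05). FAS, a death receptor, had 39.8, 40.9 and 39.9 CPM at 360 min, against 27.1, 28.6 and 28.5 CPM at 0 min (log2 fold change 0.52 ± 0.06, adjusted p = 1.1e-04). Both groups were apart in these genes. POLH, a polymerase that copies past lesions, DDB2, a repair factor, and ZMAT3, a zinc finger protein, rose as well (0.43 ± 0.05, 0.35 ± 0.04 and 0.36 ± 0.05). CCNG2, an atypical cyclin that slows the cycle, is listed with the FOXO targets and had 11.5, 10.7 and 12.1 CPM at 360 min, against 6.46, 6.07 and 6.33 CPM at 0 min (log2 fold change 0.86 ± 0.09, adjusted p = 2.9e-05). With replicate 1 as the only library at 0 min, 9 of the p53 targets were higher.

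Cytosolic chaperones rose, 13 of 21, with 2 lower and a median of 0.23. They refold damaged proteins and are induced by heat shock factor 1. HSPA8, the constitutive HSP70 and a very abundant mRNA, had 2619, 2659 and 2484 CPM at 360 min, against 1738, 2011 and 1932 CPM at 0 min. Its groups did not overlap (log2 fold change 0.45 ± 0.05, adjusted p = 4.3e-05). HSPH1, which recharges HSP70 with nucleotide, had 248, 245 and 247 CPM at 360 min, against 169, 184 and 188 CPM at 0 min (log2 fold change 0.45 ± 0.04, adjusted p = 2.4e-05). The co-chaperones DNAJA1 and CHORDC1 rose alike (0.37 ± 0.04 and 0.46 ± 0.05). The inducible pair HSPA1A and HSPA1B had log2 fold changes of 0.55 ± 0.06 and 0.58 ± 0.06, and since their sequences are nearly identical, the counts of each are uncertain. A heat shock element was in 6 of 19 promoters of the list (31.6%), against 3.1% of all, including the 3 printed above. Over the series HSPA1B averaged 197, 158, 134 and 295 CPM at 0, 10, 30 and 360 min in turn, so the 360 min level followed lower averages at 10 and 30 min.

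Other branches of protein quality control moved less. Of 36 proteasome subunits 17 were higher and the other 19 not called, with a median of 0.11 and a largest value of 0.24. PSMC6 and PSMD1, both of the regulatory particle, rose by more than that median (0.24 ± 0.04 and 0.19 ± 0.03). Leaving out replicate 1, 2 or 3 at 360 min left 10, 10 and 9 higher, leaving out replicate 1 or 3 at 0 min left 9 and 11, and the low mitochondrial side alone gave 11. Without the GC trend 13 were higher. Of 23 genes for endoplasmic reticulum chaperones and the unfolded protein response 8 were higher and 2 lower. DESeq2 called 13 higher, and 12 were higher without the GC trend. CANX, a lectin chaperone, had 1412, 1370.2 and 1455 CPM at 360 min, against 1165, 1225 and 1203 CPM at 0 min (log2 fold change 0.24 ± 0.03, adjusted p = 4.9e-04). DNAJB9, an Hsp40 of that compartment, had 29.1 ± 2.03 CPM at 360 min, against 20.2 ± 2.93 CPM at 0 min (SD, n = 3 each; log2 fold change 0.52 ± 0.10, adjusted p = 0.0029). HERPUD1, a degradation factor, rose too (0.38 ± 0.07). Among 24 ATF4 targets 8 were higher and 4 lower, and 5 were higher without replicate 3 at 360 min. DDIT4, an inhibitor of mTORC1, had 223, 213 and 209.98 CPM at 360 min, against 139, 143 and 153 CPM at 0 min (log2 fold change 0.57 ± 0.06, adjusted p = 4.4e-05). ATF3, a stress-induced repressor, fell (log2 fold change -0.94 ± 0.13, adjusted p = 4.1e-04). DDIT4 averaged 145, 145, 56.9 and 215 CPM at 0, 10, 30 and 360 min in turn, with its lowest level at 30 min.

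Some splicing kinases and factors rose. CLK1 (chr2:200853009-200864744 on the minus strand), which phosphorylates SR proteins, had 66.9, 71 and 66.1 CPM at 360 min, against 33.2, 31.4 and 35 CPM at 0 min. Its adjusted p was the smallest among the named genes that rose (log2 fold change 1.03 ± 0.05, adjusted p = 1.3e-07). CLK4, its relative, had 18.2, 21.3 and 18.5 CPM at 360 min, against 12.6, 11.4 and 12 CPM at 0 min (log2 fold change 0.69 ± 0.08, adjusted p = 1.0e-04). SRSF2 and SRSF3, which regulate exon choice, rose (0.57 ± 0.04 and 0.35 ± 0.05), while SRSF5 fell (-0.22 ± 0.04). In all, 8 of 22 CLK and SR genes were higher, 1 was lower and 13 were not called. Of 28 other splicing factors 7 were higher and the other 21 not called, with RBM39 as the most abundant example named (0.28 ± 0.03). Without the GC trend the first list had 8 higher and 3 lower, and the other 9 higher and 2 lower. AC015813.2, a gene model with the second largest increase among called genes with a mean log2 level of at least 1 and groups that did not overlap, overlaps SRSF1 on the same strand. It lost its call in 13 of 20 alternatives, among them DESeq2, limma voom, removal of the GC trend and omission of any 1 of the 6 libraries, and SRSF1 itself was not called. In mRNA decay 7 of 31 were higher and 1 lower, led by CNOT1, the scaffold of the deadenylase complex (log2 fold change 0.32 ± 0.04, adjusted p = 1.2e-04). On the low mitochondrial side alone 3 were higher.

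The ribosomal protein, mitochondrial genome and respiratory chain lists held few called genes, beside 8.89% higher and 9.19% lower over all genes tested. Of 79 cytosolic ribosomal protein genes edgeR called 0, limma voom 0 and DESeq2 3, all lower, and 4 had an unadjusted p under 0.05 in edgeR. Their median was -0.04. Of 13 mRNAs of the mitochondrial genome edgeR, limma voom and DESeq2 called 0, and 0 had an unadjusted p under 0.05, although their share of counts differed between libraries as given above. Their median was -0.08, and 0.35 without replicate 1 at 0 min. Of 65 nuclear-encoded respiratory chain genes 2 were higher and the other 63 not called. The 2 became 0 without any 1 of the 6 libraries, and 4 on the low mitochondrial side alone. In the TCA cycle list 2 of 22 genes were higher, near the 8.89% over all genes tested. The count was 6 without replicate 2 at 0 min, 5 in DESeq2 and 4 without the GC trend. FH, the fumarase, was among the 2 (0.14 ± 0.03).

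Smaller lists held single genes with large changes. CYP24A1 (chr20:54153449-54173973 on the minus strand), which inactivates vitamin D, had 6.74, 8.24 and 7.17 CPM at 360 min, against 29.6, 27.9 and 26.9 CPM at 0 min. The 360 min libraries were all far below the others (log2 fold change -1.94 ± 0.08, adjusted p = 1.5e-08). PAQR8 (chr6:52361421-52407777 on the plus strand), a membrane progesterone receptor, had 24.4, 25.8 and 27.3 CPM at 360 min, against 66.1, 66.9 and 71 CPM at 0 min (log2 fold change -1.40 ± 0.05, adjusted p = 6.4e-09). Its relatives PAQR4 and PAQR7 fell less (-0.25 ± 0.04 and -0.29 ± 0.05), and the other 6 of the 9 tested members of that list were not called. CYP24A1 averaged 28.1, 28.8, 30.04 and 7.38 CPM and PAQR8 68, 75.6, 73.2 and 25.8 CPM at 0, 10, 30 and 360 min in turn. Both stayed near their 0 min level at 10 and 30 min.

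Signals of iron, inflammation and hormone receptors were mixed. Beside the counts in these lists, 8.89% of all genes tested were higher and 9.19% lower. TFRC, which imports iron, had 379.9, 386 and 386 CPM at 360 min, against 277, 305 and 290.2 CPM at 0 min (log2 fold change 0.40 ± 0.05, adjusted p = 7.9e-05), and 3 of 15 iron genes were higher and 3 lower. CCL20, a chemokine, had 149, 143 and 141 CPM at 360 min, against 88.5, 91.4 and 97.2 CPM at 0 min (log2 fold change 0.64 ± 0.07, adjusted p = 3.5e-05). BIRC3, an NF-kB-induced ubiquitin ligase, had 11, 12.4 and 10.8 CPM at 360 min, against 6.51, 6.48 and 6.31 CPM at 0 min (log2 fold change 0.82 ± 0.09, adjusted p = 5.0e-05). These 2 and TNFAIP3, a brake on NF-kB (0.28 ± 0.04), were among 7 of 23 NF-kB genes called higher, with 2 lower. On the low mitochondrial side alone 0 were lower. The 7 became 4 without replicate 2 or 3 at 360 min or without replicate 3 at 0 min. Of 36 nuclear receptors and coregulators 5 were higher and 8 lower. NCOA3, a coactivator, rose (0.26 ± 0.03). PPARG, a lipid-sensing receptor, fell (log2 fold change -0.47 ± 0.07, adjusted p = 3.8e-04). EPAS1, which encodes HIF-2 alpha, had 261, 256 and 267 CPM at 360 min, against 325, 330.3 and 315 CPM at 0 min (log2 fold change -0.31 ± 0.03, adjusted p = 4.9e-05) and was among 4 of 22 hypoxia genes called lower, with 2 higher. The 2, near the share over all genes tested, became 0 without replicate 1 at 0 min or without replicate 2 or 3 at 360 min.

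Of 2804 long noncoding RNA genes tested, 93 (3.32%) were higher and 80 (2.85%) lower, against 8.89% and 9.19% of all genes tested. AC020656.2 (chr12:69326574-69331882 on the minus strand), an intergenic RNA that overlaps no other gene model, had 31.4, 30.1 and 31.6 CPM at 360 min, against 17.6, 9.07 and 9.54 CPM at 0 min. Replicate 1 at 0 min was the highest of its group but still below the 360 min libraries (log2 fold change 1.38 ± 0.21, adjusted p = 6.5e-04), and against it alone the log2 fold change was 0.82. AC007493.1, another intergenic RNA, had 13.9, 12.9 and 14.2 CPM at 360 min, against 35.2, 32.5 and 34.8 CPM at 0 min. It was the most clearly separated of the noncoding genes called lower (log2 fold change -1.32 ± 0.06, adjusted p = 6.0e-08). AJ009632.2 rose (log2 fold change 0.83 ± 0.11, adjusted p = 2.7e-04), and ZMIZ1-AS1, which is antisense to ZMIZ1, fell (log2 fold change -1.20 ± 0.16, adjusted p = 2.9e-04). Their functions are not described here.

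Among the most abundant mRNAs called lower were those of the 2 keratins of hepatocytes. KRT8 had 1614, 1566 and 1650.3 CPM at 360 min, against 1984, 2074 and 2005 CPM at 0 min (log2 fold change -0.33 ± 0.03, adjusted p = 1.9e-05). KRT18 had 956, 951 and 1004 CPM at 360 min, against 1166, 1266 and 1225 CPM at 0 min (log2 fold change -0.33 ± 0.04, adjusted p = 1.1e-04). They pair in the same filaments, and their genes overlap on opposite strands, so without strand, reads in the overlap cannot be assigned. Among other genes chosen by size of change alone, WDR72 rose (log2 fold change 0.90 ± 0.08, adjusted p = 1.7e-05), and NXPH3, a neurexophilin, and SRRM3, a splicing regulator of neurons, fell (-1.36 ± 0.15 and -1.28 ± 0.17). WDR72 had 14.6, 15.2 and 15.5 CPM at 360 min, against 8.17, 8.68 and 7.49 CPM at 0 min. All of these had groups that did not overlap.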

How the data were processed

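Polyadenylated RNA was measured in 12 HepG2 libraries, 3 per group, and 6 of them are compared here. The deposited file is a single table of raw read counts, as whole numbers, for 60612 gene identifiers, and the authors applied no normalization to it. HISAT2, DESeq2 and the GRCh38 build are named in the submitters' processing notes without versions or roles. How reads were counted, against which annotation release and whether strand was used is not given in the sources used here, so counts of overlapping, antisense, readthrough and near-identical genes are uncertain. Gene positions, types, lengths and GC content were taken from GENCODE 29 on GRCh38, which held 58394 of the identifiers (96.34%).

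Counts were tested with edgeR 4.0.16 in R 4.3.3 after filterByExpr by group and TMM scaling (factors 0.981 to 1.014). The quasi-likelihood fit used all 12 libraries with a coefficient for each time (8 residual degrees of freedom, common dispersion 0.00945, biological coefficient of variation 9.72%). Tests are two-sided, with Benjamini-Hochberg adjustment over all 17779 genes. The SE was obtained by dividing the absolute log2 fold change by the square root of F. The p-values measure the spread between libraries that the series calls biological replicates. The steps were also run on simulated counts in which 200 genes were changed. Those counts lacked the GC tilt and the mitochondrial split of these libraries, and the outcome is not given here.

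The gene lists, marker lists and motifs, and the rule for named genes, were chosen with earlier results of these data known. Each list could name its 6 members with the smallest p. Further genes were named among the 15 largest changes per direction, where the mean log2 CPM reached 1 and the groups did not overlap, among the 5 most abundant called genes per direction, and among the 5 largest changes per direction of genes that are not protein coding. Some genes that meet the rule are not reported here. Promoters come from RefSeq on GRCh38.p14 and were matched by gene identifier, or else by symbol, for 11094 of the genes tested (62.4%). Alternatives used DESeq2 1.42.0 and limma 3.58.1, other scalings and filters, other designs, omission of each library, and removal of GC trends.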

Additional observations from a re-analysis of the deposited data

How the results depend on the processing

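The count of 3215 called genes (1581 higher, 1634 lower) stayed within 1.5 times under DESeq2 (3444, of which 3030 were among the 3215), limma voom (3501), other scalings, no filter (2367), a stricter filter (3366), the 2 groups alone, thinning to the smallest total, a term for the mitochondrial split, the low mitochondrial side alone (2460) and removal of GC trends. Scaling by total counts gave 1374 higher and 1781 lower. It fell to 1718 (792 higher, 926 lower) at an adjusted p under 0.01 and to 358 (102 higher, 256 lower) when a change of more than 1.2-fold was tested. Leaving out 1 library gave 2281 to 2714 called, of which 2206 to 2393 were among the 3215. It gave 1024 to 1219 higher and 1178 to 1512 lower, and the lowest count of higher genes came without replicate 2 at 360 min. With replicate 1 as the only library at 0 min, chosen after seeing the data, 1751 were called (900 higher, 851 lower), and the lone library is assumed to vary like the other groups. In that setting the calls of further lists also fell by more than 1.5 times, to 2 higher for phase I enzymes, 4 lower for phase II enzymes, 3 lower for ERK feedback, 2 higher for fatty acid synthesis, 1 higher and 3 lower for fatty acid oxidation, 3 higher for bile acids, 4 higher and 2 lower for the acute phase, 8 higher for the proteasome, 4 higher and 2 lower for ATF4 targets, 4 higher for other splicing factors, 4 for mRNA decay and 4 for NF-kB genes, 4 lower for nuclear receptors, 2 lower for hypoxia genes and 1 lower for iron genes.

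The replicate numbers are shared between the groups, but same-numbered libraries did not deviate together (correlations -0.1, 0.145 and -0.098), so the numbers were not taken as pairs. The highest correlation of any pairing, 0.209, was between replicate 3 at 360 min and replicate 1 at 0 min. Those libraries had the highest mitochondrial shares of the 6. With the replicate block 3067 genes were called (1548 higher, 1519 lower), 2932 of them among the 3215.

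The genes given here with values were picked mainly for a small p, a large change or a high level. Their count of kept calls therefore does not describe all called genes, and the stricter thresholds are left out of it. Of the 133 called genes given here with values, 128 kept their call under all alternatives that gave an adjusted p (18 of 20 for HAMP). The exceptions are AC015813.2 (lost in 13 of 20), FOSB and ALDH3A1, as given above, AL133346.1 and BTG2; the last pair lost theirs against replicate 1 at 0 min alone. The direction turned in 0 of the 133; the log2 fold change of LYZ, not called, was 0.002 on the low mitochondrial side alone. Depth limits the genes at low level: of the least abundant quintile, 1.07% were called higher and 2.28% lower. No untreated library of 360 min was analysed here, and the causes of these differences were not tested.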
